A study of Mus musculus with 8 samples.

Results

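The genes described here encode collagen chains, laminin chains and the large matrix protein Svep1. They were chosen by symbol: every Ensembl gene of the deposited count table with a symbol made of Col, a number, a and a number, or of Lama, Lamb or Lamc and a number, and Svep1. The rule found 56 genes of the 39017 in the table, of which 44 were collagen chains, 11 were laminin chains and 1 was Svep1. RNA was sequenced from tdTomato-positive cells sorted from the cochlear nucleus, the first auditory relay of the hindbrain, of C57BL/6 mouse embryos shortly before birth (E18.5). All embryos, controls included, carried Math1::Cre and the Rosa tdTomato reporter, so the sorted cells are those in which Cre driven by Math1 (Atoh1, which specifies rhombic lip neurons) had been active. The 4 wild type libraries, called controls here, have no further allele in their titles. The 4 mutant libraries came from embryos that the sample titles give as Hoxa2+/fl and Hoxb2fl/fl in addition, whereas the design text of the series gives both Hox genes as fl/fl. Each library pooled 3 littermates and each came from a separate mother, so the p-values measure variation between litters.

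Collagens are trimers of chains with repeating glycine triplets. Fibrillar collagens build fibres, fibril-associated collagens decorate them, and collagen IV forms the net of basement membranes together with laminins, which are trimers of an alpha, a beta and a gamma chain. In developing brain, basement membranes surround the pial surface and the blood vessels, and fibroblasts, vascular cells and radial glia are known makers of many of these chains, while some neurons also transcribe collagens. Svep1 is a long secreted protein with sushi, von Willebrand factor A, EGF and pentraxin domains that binds integrin alpha9 and is known for its role in lymphatic vessel formation.

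Total counts ran from 24789043 to 51118195 per library, and no pair of the 8 libraries agreed within sampling noise. Libraries are named by group and by the number in their column heading, mutant 1 to 4 and control 5 to 8. Hoxb2 lay between 37.4 and 46.6 CPM (counts scaled to library size with TMM factors) in the controls and between 3.77 and 6.81 CPM in mutants, and it fell (log2 fold change -3.00, edgeR adjusted p = 3.76e-05). Hoxa2 lay between 30.8 and 55.1 CPM and between 11.1 and 47.97 CPM, so that mutant 2 was within the control range (log2 fold change -0.70, edgeR adjusted p = 0.506). The summed level of 20 genes of Atoh1-lineage neurons was between 10592 and 14962 CPM over the libraries. That list also holds general neuronal genes such as Tubb3, Stmn2 and Snap25, so the sum is not of lineage genes alone. With edgeR 1 of the 20 was lower at an adjusted p below 0.05, as were 0.215% of all tested genes. With DESeq2 Barhl2 and Nhlh1 passed, where 2.51% of all tested genes did. RNA of glial markers was also present: the sum of 15 radial glia and astrocyte markers ran from 978 to 1432 CPM in controls and from 687 to 1413 CPM in mutants, with the highest values in control 6 and mutant 1. Whether it came from other cells or from cells of the sorted lineage was not tested.

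The stretches of DNA before the RefSeq starts of 5 genes are shown first, because these are the matrix genes whose difference between the groups passed a test with edgeR or, as an alternative, with DESeq2. Of the 6 matrix genes on chromosome 4, Col15a1, Svep1 and Col27a1 are among them, and of these only Svep1 passed with edgeR. Over all tested genes, 0.359% passed with edgeR and 2.51% with DESeq2. This grouping was made after the calls were seen. Gaps of 10729274 bases between Col15a1 and Svep1 and 5007144 bases between Svep1 and Col27a1 separate the genes. The sequences are from RefSeq on build GRCm38.p6, which has the coordinates of mm10, written 5′ to 3′ on the strand of the gene. For Col8a1 (chr16:57754738-57754987, minus strand), Col15a1 (chr4:47207762-47208011, plus strand), Col9a1 (chr1:24177360-24177609, plus strand) and Col27a1 (chr4:63215162-63215411, plus strand) they are the 250 bases before the start. The Col27a1 window lies inside the GENCODE span of that gene, which begins upstream of this RefSeq start, and touches none of its annotated exons. For Svep1 the full window is not shown, because annotated exons of Svep1 and of the non-coding RNA Gm26889 overlap it. A 30-base stretch around its 2 matches to TGACAG is shown instead (chr4:58206807-58206836, minus strand), beginning 240 bases before the RefSeq start. The printed Svep1 bases lie inside the GENCODE span of the gene, within an exon annotated from 58205843 to 58206859, so they are upstream of the RefSeq start only. Capitals mark matches on either strand to TGATNNAT (a Hox-Pbx composite site), TGACAG (a core site of Meis and Pknox factors), CAGCTG (an E-box of the kind bound by helix-loop-helix factors), TATAAA and GGGCGG (a GC box).
Svep1: gggaatgtTGACAGcaTGACAGgcgagggg
Col8a1: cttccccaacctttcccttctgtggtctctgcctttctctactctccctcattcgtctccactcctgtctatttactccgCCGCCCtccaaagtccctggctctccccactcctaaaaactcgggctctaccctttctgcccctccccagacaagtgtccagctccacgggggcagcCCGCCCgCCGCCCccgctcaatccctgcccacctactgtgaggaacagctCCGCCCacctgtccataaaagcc
Col15a1: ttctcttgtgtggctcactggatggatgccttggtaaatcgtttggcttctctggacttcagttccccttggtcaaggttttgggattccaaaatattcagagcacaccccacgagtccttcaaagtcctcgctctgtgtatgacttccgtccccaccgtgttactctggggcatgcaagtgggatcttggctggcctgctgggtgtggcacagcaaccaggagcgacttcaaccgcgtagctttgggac
Col9a1: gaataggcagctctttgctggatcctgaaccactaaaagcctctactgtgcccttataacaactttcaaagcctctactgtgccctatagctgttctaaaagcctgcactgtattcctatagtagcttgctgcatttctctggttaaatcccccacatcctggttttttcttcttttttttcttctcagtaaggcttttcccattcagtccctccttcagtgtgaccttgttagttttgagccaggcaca
Col27a1: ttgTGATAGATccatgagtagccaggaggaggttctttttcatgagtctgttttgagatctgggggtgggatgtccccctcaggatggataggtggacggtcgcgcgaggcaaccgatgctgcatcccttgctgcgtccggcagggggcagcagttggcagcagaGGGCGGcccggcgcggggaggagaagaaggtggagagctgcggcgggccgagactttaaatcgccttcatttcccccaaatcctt

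The Svep1 stretch holds TGACAG in 2 copies that begin 8 bases apart. At least 2 matches to TGACAG were found in 1.63% of the 27025 promoter windows searched, and at least 1 match in 15.97%. The stretch was chosen for these copies. Outside it the Svep1 window also holds 1 match to TATAAA, beginning 42 bases before the RefSeq start. Col8a1 holds 4 GC boxes and none of the other motifs, and the 250 bases of Col15a1 and of Col9a1 hold none of the 5. Col27a1 holds 1 match to TGATNNAT, which was present in 7.91% of all windows. Among the 41 matrix genes with a window, 2 held TGATNNAT, 7 held TGACAG, 7 held CAGCTG, 6 held TATAAA and 23 held GGGCGG. The corresponding shares were 4.88%, 17.1%, 17.1%, 14.6% and 56.1%, against 7.91%, 15.97%, 12.8%, 12.97% and 32.9% of all windows. The median GC content of the windows was 58.8% for the matrix genes and 52.0% for all. These matches describe letters only.

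Within these cells a few chains made up most of the matrix transcripts. Levels between genes are compared as CPM per kilobase of the deposited gene length. On that scale the fibrillar chain Col11a1 was highest, with a mean of 6.75 over the 8 libraries, followed by Col9a3 at 4.54, the laminin gamma chain Lamc1 at 3.02, Col5a1 at 2.19 and Col27a1 at 2.07. Col2a1 stood at 1.75, Col18a1 at 1.67, Svep1 at 1.499, Col5a2 at 1.32, Col4a1 at 0.91, Col9a2 at 0.894 and Col4a5 at 0.888. These 12 genes held 70.9% of the summed per-kilobase level of all 56. Col11a1 stood above 62.6% of all tested genes and Col9a3 above 53.4%, whereas Col4a1 stood above 24.3%. The classical fibroblast chains were low, with 0.204 for Col1a2, 0.149 for Col3a1 and 0.146 CPM per kilobase for Col1a1, above 8.02%, 5.61% and 5.42% of tested genes. Neighbours in this order often overlapped: Lamc1 libraries ran from 2.55 to 3.65, within reach of Col5a1 at 1.17 to 4.64 and Col27a1 at 0.93 to 3.90. Of the other matrix genes, only Col9a3, at 3.93 to 5.35, reached the Col11a1 range of 5.14 to 9.41.

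**Figure D1:**
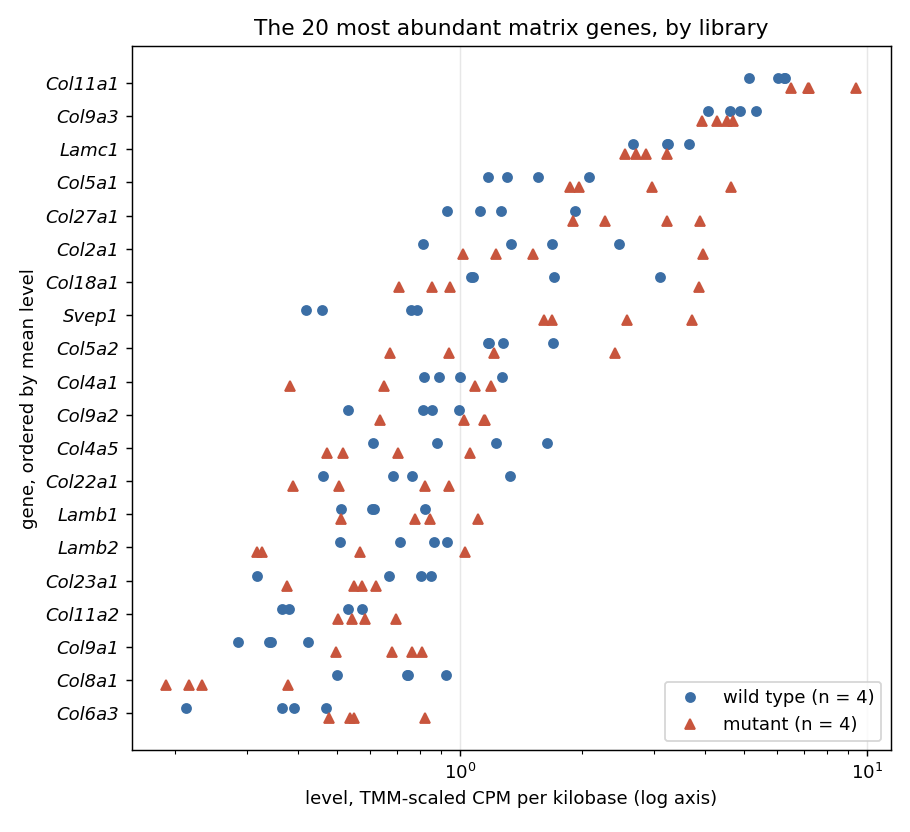
Level of the 20 most abundant matrix genes in each library, as TMM-scaled CPM per kilobase on a log axis; circles are the 4 wild type and triangles the 4 mutant libraries. Col11a1 at 6.75 and Col9a3 at 4.54 have the highest means. The values of the groups do not overlap for Svep1, Col8a1, Col11a1, Col9a1 and Col6a3.

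Between mutant and wild type, Svep1 rose and the short-chain collagen Col8a1 fell, and the other 53 of the 55 tested matrix genes did not pass the test. The test was edgeR's quasi-likelihood test with a Benjamini-Hochberg adjusted p below 0.05 over 19494 genes. The 2 calls were 3.64% of the tested matrix genes, and 0.359% of all tested genes were called, 0.144% as higher and 0.215% as lower. At an unadjusted p below 0.05 there were 16 matrix genes, 8 higher and 8 lower, or 29.1%, against 12.5% of all tested genes, 7.22% higher and 5.29% lower. The 4 mutant and 4 wild type values did not overlap in 9 matrix genes, 6 higher and 3 lower, or 16.4%, against 6.17% of all, 3.23% higher and 2.94% lower. Without Svep1, which the rule names singly, 1.85% of the tested matrix genes were called. At an unadjusted p below 0.05 there were then 27.8%, and 14.8% did not overlap. The members were chosen with earlier results of these data known, so these shares describe the list. The median log2 fold change was -0.12 over the matrix genes and -0.01 over all tested genes, with 24 matrix genes above 0 and 31 below, while 48.4% of all tested genes were above 0. The calls depended on the method. DESeq2 called 5 matrix genes, Svep1, Col8a1, Col15a1, Col9a1 and Col27a1, where it called 2.51% of all genes. With quality weights limma-voom called the same genes except Col27a1, where 1.2% of all genes passed, and without a filter on low counts Col15a1 and Col8a1 passed, where 0.616% did. The 5 genes of DESeq2 also passed when mutant 1 was removed (2.7% of all genes). Svep1 was the only call when mutant 2 (0.163%) or control 6 (0.384%) was removed, Col27a1 and Col8a1 were the calls without control 7 (0.319%), and no matrix gene passed without mutant 3 (0.181%), mutant 4 (0.13%), control 5 (0.182%) or control 8 (0.16%). Svep1 alone passed with DESeq2 size factors (0.349%), upper quartile scaling (0.298%), a minimum of 1 CPM in 4 libraries (0.337%), a non-robust edgeR fit (0.339%) and plain limma-voom (0.354%). With mutant 1 and controls 5 and 6 all removed, 2 matrix genes passed, Svep1 and Col15a1, where 0.849% of all genes were called. In bulk samples, fewer cells of a type and less RNA per cell cannot be told apart.

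**Figure D2:**
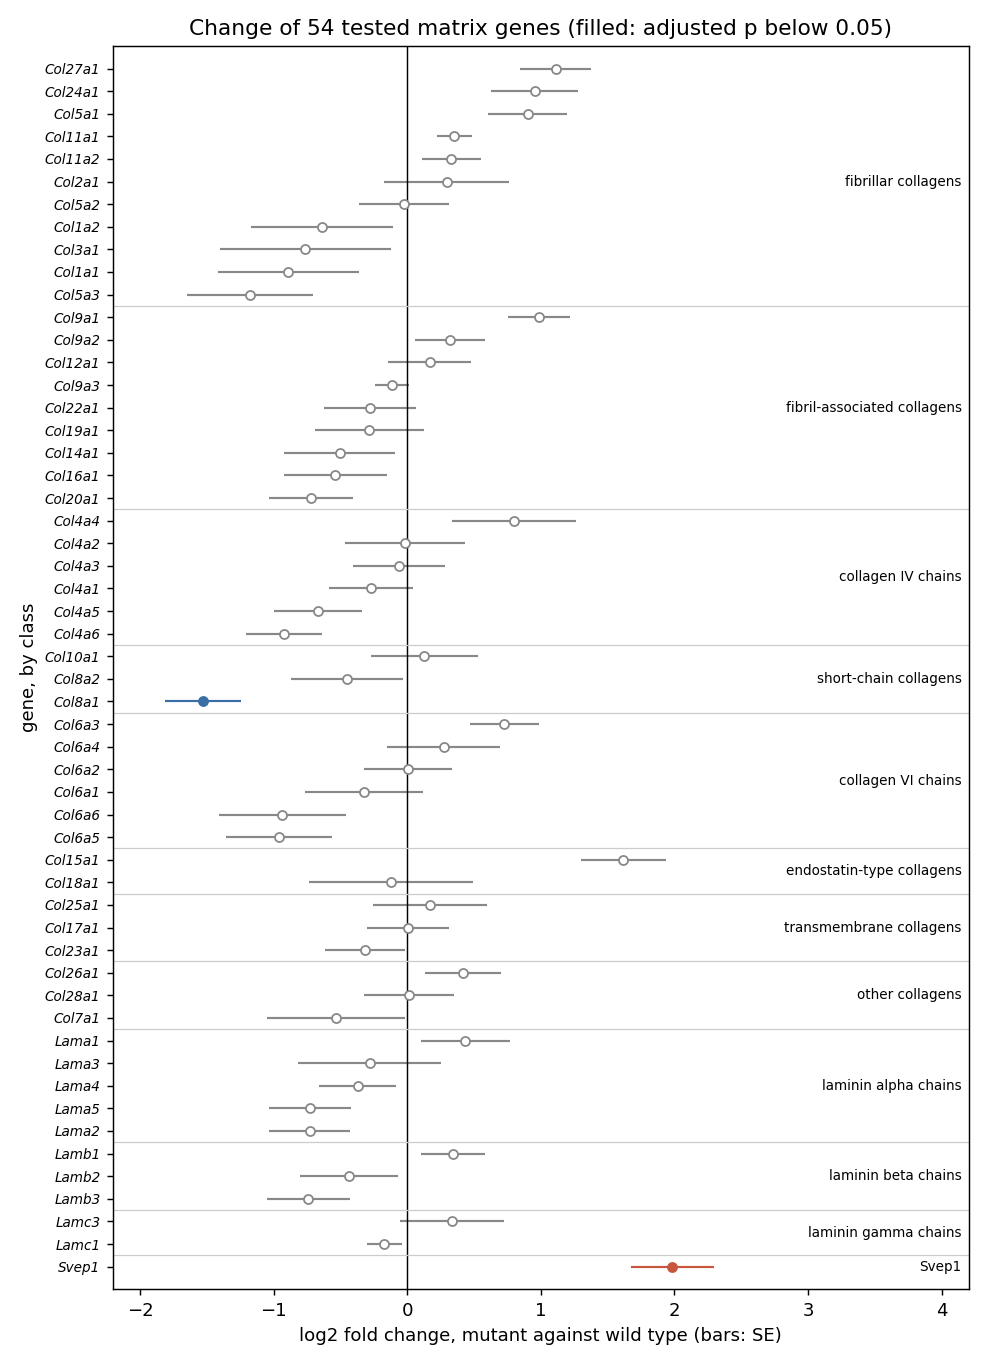
Log2 fold change of mutant against wild type with its SE for 54 of the 55 tested matrix genes, grouped by class; filled points passed the test. Svep1 lies at 1.99 and Col8a1 at -1.52, and the open points lie between -1.18 for Col5a3 and 1.62 for Col15a1.

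Svep1 (ENSMUSG00000028369, chromosome 4, 58042442 to 58206859, mm10) held 828, 1519, 1333 and 1534 counts in mutant 1 to 4 and 476, 324, 259 and 266 in control 5 to 8. Its level was 27.1, 59.8, 25.9 and 41.4 CPM in the mutant libraries and 12.2, 12.6, 7.41 and 6.73 CPM in the controls. All 4 mutant libraries lay above all controls, with mutant 2 the highest. The means were 38.6 ± 15.8 and 9.75 ± 3.11 CPM (SD, n = 4 each), a log2 change of 1.99 (SE 0.312, edgeR adjusted p = 0.0327), or 3.96-fold. Svep1 was the eighth most abundant matrix gene per kilobase over all libraries, at 2.39 in mutant and 0.605 CPM per kilobase in controls. The call ended without mutant 3, mutant 4, control 5, control 7 or control 8, with adjusted p between 0.0546 and 0.106, and without the filter on low counts (0.0758). The log2 fold change stayed between 1.70 and 2.58 in all 17 alternatives.

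Svep1 overlaps the long non-coding RNA Gm26889 on the other strand, and their exons share 2244 bases of the 2252-base length deposited for Gm26889. Gm26889 was at 2.61 CPM in mutant and 0.662 CPM in controls, a log2 fold change of 1.99 (edgeR adjusted p = 0.056) that did not pass. Whether the counting used strand is not given in the sources used here, and without it reads of the shared stretch cannot be told apart. Per kilobase, Gm26889 was at 1.16 and 0.294 CPM. Integrin alpha9 (Itga9), a receptor that Svep1 binds, was at 2.06, 1.60, 1.43 and 1.09 CPM in control 5 to 8 and 0.786, 1.14, 1.09 and 1.13 CPM in mutant 1 to 4, with a log2 change of -0.57 (SE 0.284, edgeR adjusted p = 0.439); it was chosen for its known binding of Svep1. Summed levels of hair cell and inner ear markers did not overlap between the groups: 41.7 to 56.9 CPM in mutant and 21.3 to 40.8 CPM in controls, mostly from Cib2 and Myo7a. None of the 5 tested of these 10 markers passed with edgeR or DESeq2, and 2 had an unadjusted edgeR p below 0.05, as had 12.5% of all tested genes. No tested marker of this list separated the groups by itself, and no other marker sum did. The log2 fold changes of the 5 ran from -0.73 to 1.55, with 3 positive and 2 negative. Pou4f3, a defining hair cell factor, had at most 12 counts in any library. Their part in the Svep1 result was not tested.

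Col8a1 (ENSMUSG00000068196, chromosome 16, 57624258 to 57754737) encodes a non-fibrillar chain known from the basement membrane of the cornea and from vessel walls. It held 59, 28, 50 and 44 counts in mutant 1 to 4 and 184, 98, 89 and 150 in control 5 to 8. The levels were 1.93, 1.10, 0.971 and 1.19 CPM in mutant and 4.73, 3.82, 2.55 and 3.80 CPM in controls. The groups did not overlap, with mutant 1 the highest mutant and control 7 the lowest wild type library. Means were 1.30 ± 0.431 and 3.72 ± 0.897 CPM (SD, n = 4 each), a log2 change of -1.52 (SE 0.284, edgeR adjusted p = 0.0489). The call held in 5 of 17 alternatives, and the log2 fold change ran from -1.39 to -1.77 in all of them. It ended when any of mutant 2, 3 or 4 or control 5, 6 or 8 was left out, with adjusted p between 0.0868 and 0.18. Its partner chain Col8a2, at 0.354 to 1.00 CPM, had a log2 change of -0.45 (SE 0.417, edgeR adjusted p = 0.673). The third short-chain gene, Col10a1 of hypertrophic cartilage, had 0.13 (SE 0.401). Markers of vascular cells and of microglia and macrophages are given beside the Col8a1 result. The sum of 15 pericyte and smooth muscle markers was 23.4 to 42.7 CPM in controls and 16.7 to 29.97 CPM in mutants, and that of 20 endothelial markers was 69.0 to 96.3 and 72.8 to 94.4 CPM. Of the 14 tested pericyte and smooth muscle genes 11 had a negative log2 fold change, with a median of -0.58. Of the 17 tested endothelial genes 10 were negative, with a median of -0.21. None of either list passed with edgeR or DESeq2. The sum of 13 microglia and macrophage markers was 15.9 to 28.9 CPM in controls and 12.2 to 20.1 CPM in mutants. Among them 1, the complement gene C1qa, fell (log2 fold change -3.45, edgeR adjusted p = 0.0115), where 0.215% of all tested genes were called lower. With DESeq2, which called 2.51% of all tested genes, 3 of the 10 tested microglia genes passed, C1qa, Cx3cr1 and P2ry12. The median log2 fold change of the 10 was -1.07, with 8 of them negative. The part of these cells in the Col8a1 result was not tested.

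**Figure D3:**
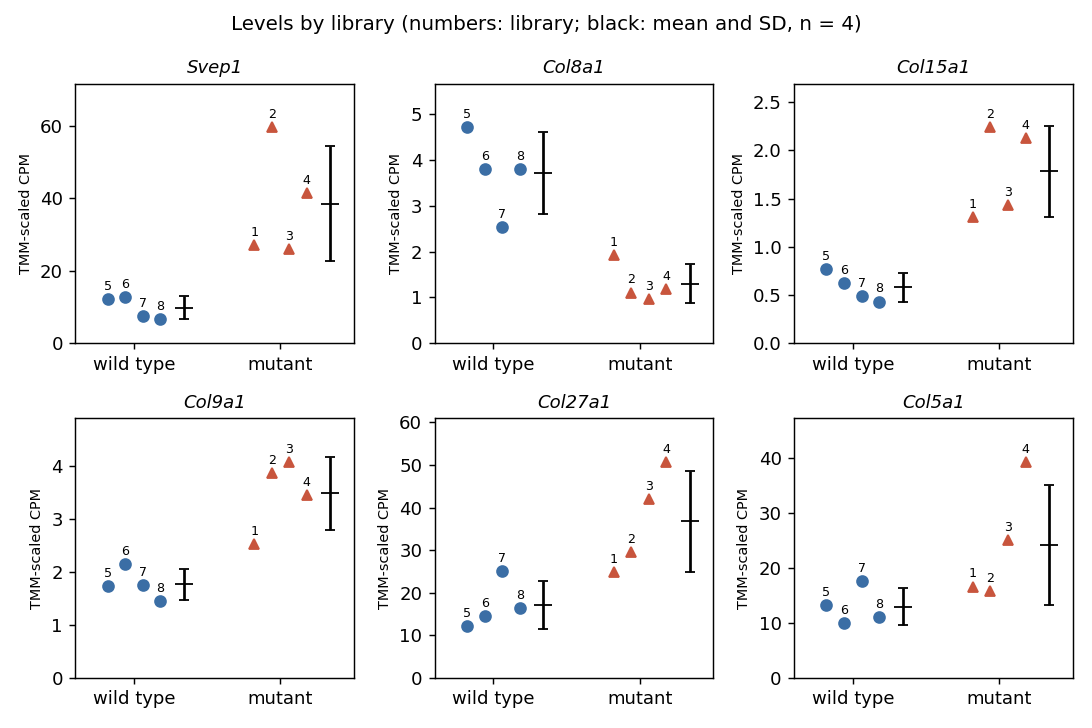
TMM-scaled CPM by library for 6 matrix genes, numbered by library, with the mean and SD of each group (n = 4) in black. The groups are separate for Svep1, Col8a1, Col15a1 and Col9a1, and they touch or overlap for Col27a1 and Col5a1.

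Among the 11 fibrillar chains none passed with edgeR and 1, Col27a1, passed with DESeq2; 4 had an unadjusted p below 0.05 with a higher level in mutants and 1 with a lower level, and the median log2 fold change was 0.30. Over all tested genes these shares were 7.22% higher and 5.29% lower, and DESeq2 called 2.51%. Col27a1, a fibrillar chain of cartilage, was at 24.8, 29.5, 42.0 and 50.8 CPM in mutant 1 to 4 and at 12.1, 14.6, 25.0 and 16.5 CPM in control 5 to 8. Mutant 1 lay just below control 7, and the other mutant libraries lay above all controls. Its log2 change was 1.11 (SE 0.266, edgeR adjusted p = 0.131). It passed with DESeq2 (adjusted p = 0.0027), without mutant 1 (0.0237) and without control 7 (0.0482). Col5a1, which sets the diameter of collagen fibrils, was at 16.6, 15.8, 25.1 and 39.4 CPM in mutant and 13.2, 9.97, 17.6 and 11.1 CPM in controls. Its groups overlapped, mutant 4 was highest, and the log2 change was 0.90 (SE 0.295, edgeR adjusted p = 0.27).

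Col11a1, the most abundant matrix gene here and a minor fibrillar chain of cartilage and the inner ear, was at 69.3, 62.9, 90.8 and 69.5 CPM in mutant and 60.4, 58.3, 60.7 and 49.7 CPM in controls. The groups did not overlap, but the difference was small, at a log2 change of 0.35 (SE 0.129, edgeR adjusted p = 0.299). Its partner Col11a2 was at 2.49 to 4.75 CPM, with a log2 fold change of 0.33 (SE 0.219). Col24a1, a fibrillar chain of developing bone and cornea, had 0.95 (SE 0.327, edgeR adjusted p = 0.277) with no overlap, and Col5a3 had -1.18 (SE 0.47, edgeR adjusted p = 0.337). Of 12 cartilage markers, listed after seeing the data, 5 were tested, none passed with edgeR and 1, Ucma, passed with DESeq2. DESeq2 called 2.51% of all tested genes. With quality weights limma-voom passed Cnmd and Ucma, where 1.2% of all genes passed. The log2 fold changes of the 5 went both ways, from -2.18 to 1.01, with 4 positive and 1 negative. The aggrecan gene Acan and the chondrocyte gene Matn1 had at most 61 and 8 counts in any library. The sum was 17.1 to 22.9 CPM in controls and 20.7 to 29.1 CPM in mutants, most of it from Prg4.

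Col1a1, Col1a2 and Col3a1, the main chains of fibroblast matrix, and Col2a1, the main fibrillar collagen of cartilage, did not pass the test. Col1a2 was at 4.27, 4.83, 2.15 and 0.835 CPM in control 5 to 8 and at 3.31, 1.58, 2.00 and 0.837 CPM in mutant 1 to 4. Col3a1 was at 2.36, 2.80, 0.801 and 0.354 CPM in controls and 1.74, 0.315, 0.66 and 0.972 CPM in mutants. Control 5, control 6 and mutant 1 were the highest for both genes and for Col1a1. Log2 fold changes were -0.89 (SE 0.528) for Col1a1, -0.64 (SE 0.534) for Col1a2 and -0.76 (SE 0.642) for Col3a1. The summed fibroblast markers did not follow the same order, at 36.8, 45.4, 47.3 and 32.9 CPM in control 5 to 8 and 38.8, 41.4, 36.4 and 33.4 CPM in mutant 1 to 4. The part of fibroblast RNA in these levels was not tested. Pdgfra, which oligodendrocyte precursors also express, gave 15.1 to 27.1 CPM of that sum. Of the 20 fibroblast genes 12 were tested, none passed with edgeR and 1, Igf2, passed with DESeq2, which called 2.51% of all tested genes. The defining fibroblast genes Dcn and Lum were too low to be tested, with at most 30 and 23 counts in any library. Both were highest in control 6, at 1.17 and 0.896 CPM, whereas the sum of the list was highest in control 7. In control 5 they were at 0.257 CPM each.

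Col2a1 was at 23.7, 9.10, 6.10 and 7.37 CPM in mutant 1 to 4 and at 10.1, 14.8, 4.86 and 8.02 CPM in control 5 to 8. Col18a1, whose product releases endostatin and sits in basement membranes, was at 27.2, 4.96, 6.00 and 6.64 CPM in mutant and 11.95, 21.8, 7.55 and 7.49 CPM in controls. Col5a2 was at 23.0, 9.02, 11.6 and 6.45 CPM and at 11.3, 16.2, 11.3 and 12.2 CPM. For each of these genes mutant 1 was the highest library and control 6 came next, which is also the pair with the highest sums of radial glia and astrocyte markers. Log2 fold changes were 0.30 for Col2a1 (SE 0.468), -0.12 for Col18a1 (SE 0.613) and -0.02 for Col5a2 (SE 0.339). Without mutant 1 the value for Col2a1 turned to -0.32, and the value for Col18a1 was -1.04. The small values of Col18a1 and Col5a2 turned positive when mutant 2, 3 or 4 or control 6 was left out. The part of glial RNA in these levels was not tested.

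**Figure D4:**
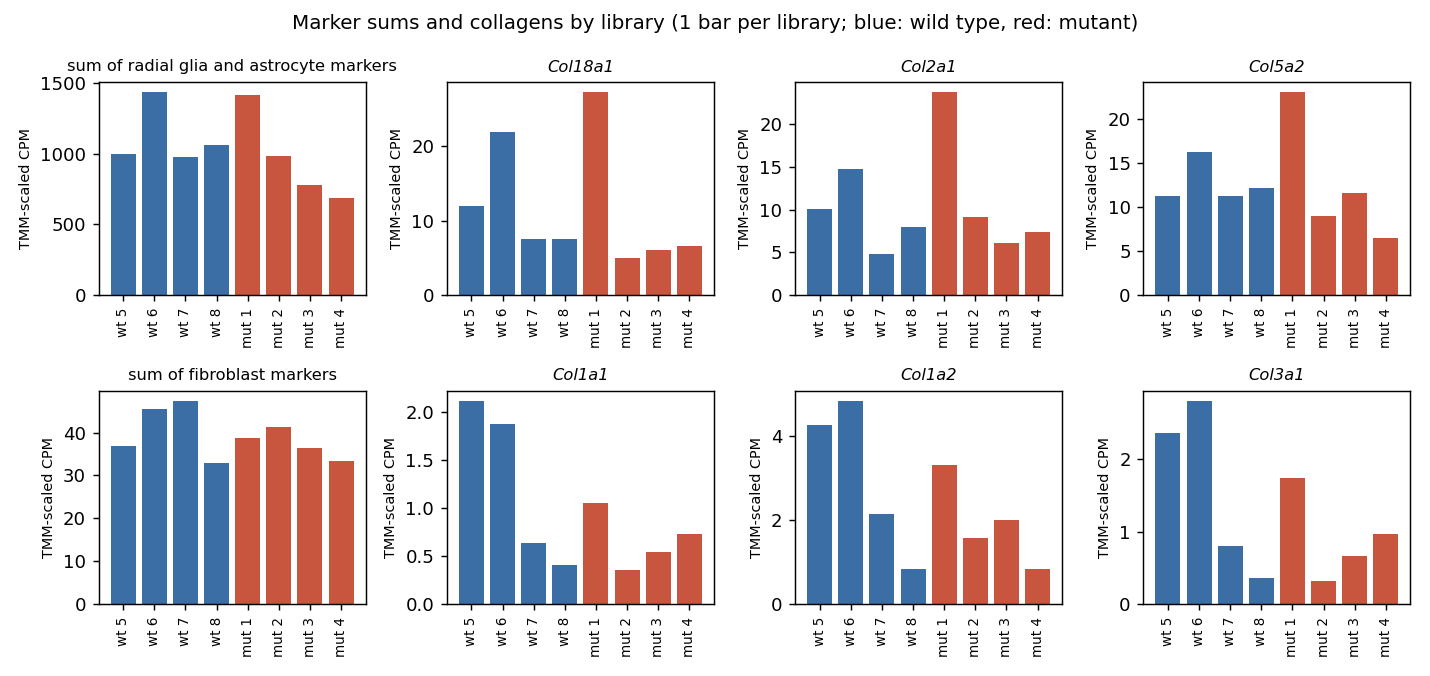
TMM-scaled CPM in each library for the summed radial glia and astrocyte markers with Col18a1, Col2a1 and Col5a2 (top) and for the summed fibroblast markers with Col1a1, Col1a2 and Col3a1 (bottom); each bar is 1 library. Mutant 1 and control 6 are highest in all 4 upper panels, and control 5 and 6 are highest for the 3 lower collagens.

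Col15a1, the relative of Col18a1 in the endostatin family, held 40, 57, 74 and 79 counts in mutant 1 to 4 and 30, 16, 17 and 17 in control 5 to 8. Its level was 1.31, 2.25, 1.44 and 2.13 CPM in mutant and 0.771, 0.623, 0.486 and 0.43 CPM in controls, without overlap. The log2 change was 1.62 (SE 0.317, edgeR adjusted p = 0.061), which did not pass. It passed in 5 of 17 alternatives, namely DESeq2 (adjusted p = 0.000722), no filter on low counts (0.0156), limma-voom with quality weights (0.0266), without mutant 1 (0.0201) and with mutant 1 and controls 5 and 6 all removed (0.0458). Per kilobase, Col18a1 exceeded Col15a1 by 14.0 to 31.7 times in controls and by 2.00 to 18.8 times in mutants.

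Of the 9 fibril-associated chains none passed with edgeR and 1, Col9a1, passed with DESeq2, and 1 had a higher and 1 a lower level at an unadjusted p below 0.05. Of all tested genes 7.22% were higher and 5.29% lower at that level, and DESeq2 called 2.51%. Collagen IX is a trimer of the Col9a1, Col9a2 and Col9a3 products. Col9a3 was at 16.5, 18.1, 15.2 and 17.4 CPM in mutant 1 to 4 and 15.7, 20.6, 17.8 and 18.8 CPM in control 5 to 8. The groups overlapped, with a log2 fold change of -0.12 (SE 0.128). Its annotated exons share 234 bases with those of Tcfl5 on the other strand, which was at 3.28 and 2.98 CPM. Col9a1 was at 2.52, 3.86, 4.08 and 3.46 CPM in mutant and 1.72, 2.14, 1.74 and 1.44 CPM in controls, without overlap, and its log2 change was 0.99 (SE 0.233, edgeR adjusted p = 0.108). Col9a1 passed with DESeq2 (adjusted p = 0.00468), with limma-voom with quality weights (0.0425) and without mutant 1 (0.0276). Col9a2 was at 3.18, 1.97, 3.57 and 3.54 CPM in mutant and 2.65, 3.08, 2.52 and 1.65 CPM in controls, overlapping, with 0.32 (SE 0.264).

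The partner chains of collagen IX were far from equal. Per kilobase, Col9a1 stood at 0.0583 to 0.0836 of Col9a3 in controls and at 0.116 to 0.205 in mutants, ranges that do not overlap. This follows from the higher Col9a1 values, which did not overlap by themselves. Col9a2 stood at 0.109 to 0.211 of Col9a3 in controls and 0.136 to 0.294 in mutants. For collagen XI, Col11a2 stood at 0.0605 to 0.103 of Col11a1 in controls and 0.0623 to 0.0967 in mutants, about the same range. For collagen V, the ratio of Col5a1 to Col5a2 was 0.694 to 1.77 in controls and 0.816 to 6.90 in mutants, with the highest value in mutant 4. The ratio of Col8a2 to Col8a1 was 0.106 to 0.358 in controls and 0.362 to 0.546 in mutants, which follows from the lower Col8a1 values. The ratios were not tested.

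**Figure D5:**
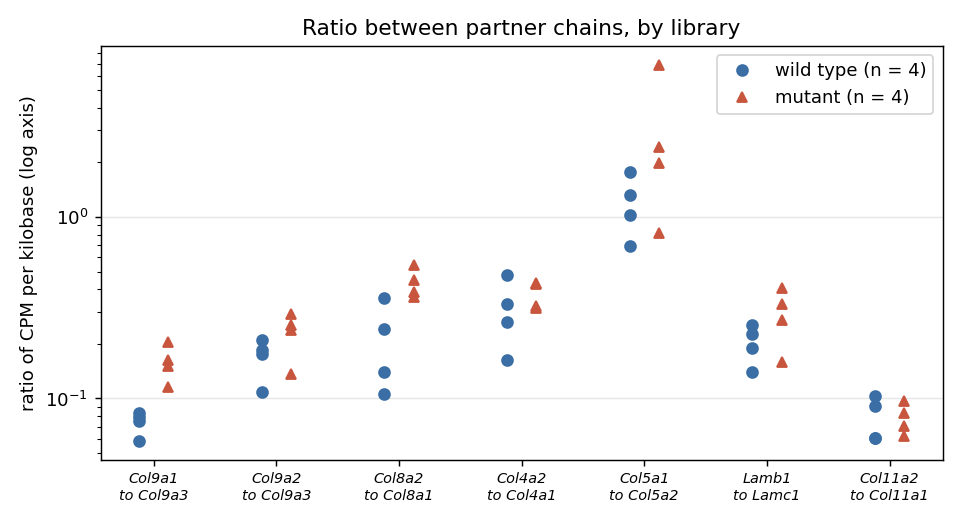
Ratio of CPM per kilobase between partner chains in each library, on a log axis; circles are the 4 wild type and triangles the 4 mutant libraries. The ratio of Col9a1 to Col9a3 is higher in all mutant libraries, which follows from the higher Col9a1 values. That of Col11a2 to Col11a1 covers about the same range in both groups.

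The remaining fibril-associated chains were lower in level. Col22a1, known from tissue junctions, was at 3.58 to 12.2 CPM with a log2 fold change of -0.28 (SE 0.346). Col12a1, a chain of tendon and other dense tissue, was at 2.30 to 6.12 CPM with 0.17 (SE 0.308). Col20a1 had -0.72 (SE 0.313, edgeR adjusted p = 0.376), and its exons share 79 bases with a sense-overlapping transcript. Col14a1, Col16a1 and Col19a1 had mean levels of at most 1.23 CPM in either group and log2 fold changes of -0.50, -0.54 and -0.28.

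Of the 6 collagen IV chains, which form the net of basement membranes, none passed with edgeR, DESeq2 or limma-voom, 1 had an unadjusted edgeR p below 0.05, and 5 had a negative log2 fold change. An unadjusted edgeR p below 0.05 was reached by 12.5% of all tested genes. Col4a1 was at 7.43, 8.11, 2.60 and 4.43 CPM in mutant and 5.55, 6.81, 8.64 and 6.05 CPM in controls, a log2 fold change of -0.27 (SE 0.315). Col4a2, its partner in the trimer of most vessels, was at 3.11, 2.48, 0.816 and 1.84 CPM and at 1.41, 3.15, 2.77 and 0.962 CPM, with -0.01 (SE 0.449). Mutant 3 was the lowest library for both. The genes lie head to head on chromosome 8, with annotated starts 21 bases apart, and Col4a2 stood per kilobase at 0.164 to 0.477 of Col4a1 over all libraries. Col4a3 and Col4a4, 72 bases apart, had at most 40 counts in any library and log2 fold changes of -0.06 and 0.80. On the X chromosome, Col4a6 had -0.92 (SE 0.287, edgeR adjusted p = 0.236) with no overlap between groups, and Col4a5 had -0.67 (SE 0.328, edgeR adjusted p = 0.436). Col4a5 was at 7.10, 4.73, 3.48 and 3.16 CPM in mutant and 8.22, 11.02, 4.12 and 5.90 CPM in controls, which overlap. Col4a6 was at 1.19 to 1.54 CPM in controls and 0.473 to 0.891 CPM in mutants.

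Of the 6 collagen VI chains, which form beaded filaments in connective tissue, none passed with edgeR or DESeq2, and 1 was higher and 1 lower at an unadjusted p below 0.05. The shares of all tested genes at that level were 7.22% higher and 5.29% lower. Col6a3 was at 6.58, 9.81, 5.69 and 6.43 CPM in mutant and 2.54, 4.36, 5.61 and 4.68 CPM in controls. The groups did not overlap, although mutant 3 lay close to control 7, and the log2 change was 0.73 (SE 0.257, edgeR adjusted p = 0.292). Col6a1 and Col6a2 had -0.32 (SE 0.441) and 0.005 (SE 0.327). Per kilobase, Col6a3 stood at 0.774 to 3.23 times Col6a1 in controls and 1.89 to 4.47 times in mutants. Col6a4, Col6a5 and Col6a6 were at 1.56 CPM or less in every library, with log2 fold changes of 0.27, -0.96 and -0.93.

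The transmembrane chains Col17a1, Col23a1 and Col25a1 and the chains Col7a1, Col26a1 and Col28a1 did not pass, with log2 fold changes between -0.53 and 0.42. Col25a1, a collagen of neurons, was at 7.29 CPM in mutant 2 and at 1.48 to 3.50 CPM in all other libraries. The transmembrane chain Col13a1 was the only matrix gene that the filter on low counts removed, with 1 to 27 counts per library.

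Among laminin chains none of 11 passed, while 3 had an unadjusted edgeR p below 0.05, all lower in mutants, where 5.29% of all tested genes were lower at that level, and 7 had a negative log2 fold change. With DESeq2 and with limma-voom none of the 11 passed either. Lamc1, the gamma chain shared by most laminins, was the most abundant, at 26.7, 23.8, 21.1 and 22.4 CPM in mutant and 30.2, 26.8, 26.7 and 22.1 CPM in controls. The groups overlapped, and the log2 change was -0.17 (SE 0.13). Of the beta chains, Lamb1 had 0.34 (SE 0.236), Lamb2 -0.44 (SE 0.366) and Lamb3 -0.74 (SE 0.314, edgeR adjusted p = 0.365). Lamb3, a chain of epithelial laminin, was at 0.513 to 0.72 CPM in mutant and 0.858 to 1.36 CPM in controls, without overlap.

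Per kilobase Lamb1 stood at 0.14 to 0.255 of Lamc1 in controls and 0.158 to 0.409 in mutants. Lamb2 exceeded Lamb1 per kilobase in control 5, 6 and 8 and in mutant 1, and was below it in control 7 and mutant 2 to 4. Of the alpha chains, Lama2, which is mutated in a muscular dystrophy, was at 4.75, 1.77, 2.10 and 4.35 CPM in mutant and 4.91, 6.46, 5.58 and 4.61 CPM in controls. Its log2 change was -0.73 (SE 0.306, edgeR adjusted p = 0.361), and mutant 1 overlapped the control range. Lama5, an alpha chain of many basement membranes, also had -0.73 (SE 0.304, edgeR adjusted p = 0.36). Lama1 had 0.43 (SE 0.333), Lama3 -0.28 (SE 0.534) and the vascular chain Lama4 -0.37 (SE 0.29).

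No gene of the 7 lists of matrix partners passed with edgeR. Counts of genes at an unadjusted p below 0.05 are from edgeR, and the 12.5% of all tested genes given above is their background. Of 21 integrins none passed and 2 had an unadjusted p below 0.05, the laminin and fibronectin receptor chains Itgb1 at -0.33 (SE 0.12) and Itgav at -0.44 (SE 0.161). The most abundant integrin genes by CPM were Itga4 at 92.1 in controls and 96.4 in mutants, Itgav at 92.5 and 67.99, and Itgb1 at 86.7 and 69.1. Of 15 other receptors of collagen and laminin none passed and 1 had an unadjusted p below 0.05; the highest in CPM were the collagen III receptor Adgrg1 at 148.6 CPM in controls and 111.99 CPM in mutants, the collagen receptor kinase Ddr1 and the syndecan Sdc3. Of 20 basement membrane partners 17 were tested, none passed and 3 had an unadjusted p below 0.05. The heparan sulphate proteoglycan Agrn was at 194.3 and 193.8 CPM, followed by Sparcl1 at 71.8 and 88.7 CPM and the peroxidasin gene Pxdn at 55.98 and 65.9 CPM. Frem2, of the Fraser complex, had a log2 change of 1.07 (SE 0.27, edgeR adjusted p = 0.149).

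Of 32 genes of collagen synthesis and crosslinking 31 were tested, none passed and 6 had an unadjusted p below 0.05. The highest in CPM were the prolyl isomerase Ppib at 162.1 in controls and 135.9 in mutants, the collagen export receptor Mia3 and the prolyl hydroxylase subunit P4hb. Colgalt1, which adds galactose to collagen hydroxylysine, was at 32.8 to 38.6 CPM in mutant and 21.1 to 28.6 CPM in controls, with 0.50 (SE 0.121, edgeR adjusted p = 0.117). The collagen chaperone Fkbp10 was at 0.971 to 2.42 CPM and 2.56 to 4.24 CPM, with -1.12 (SE 0.311, edgeR adjusted p = 0.18). Of 25 matrix proteases and inhibitors none passed and 4 had an unadjusted p below 0.05, and Adam10, Timp2 and Mmp24 were the highest in CPM. Of 37 other matrix glycoproteins, which include Reln, the most abundant at 1312 CPM in controls and 1238 CPM in mutants, 33 were tested, none passed and 1 had an unadjusted p below 0.05. Of 14 proteoglycans and hyaluronan genes of the perineuronal matrix 12 were tested, none passed and 3 had an unadjusted p below 0.05, and Vcan, Ncan and Ptprz1 were the highest in CPM. With DESeq2, which called 2.51% of all tested genes, 3 genes of the 7 lists passed, namely Frem2, Colgalt1 and Fkbp10. They are named here after their values were seen. Plain limma-voom passed none (0.354% of all genes), and with quality weights it passed Frem2 and Mmp17 (1.2% of all genes). The median log2 fold change of the 7 lists lay between -0.32 for the integrins and 0.10 for the perineuronal genes.

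Control 6 was the highest library for 19 of the 55 tested matrix genes, or 34.5%, against 15.9% of all tested genes. Control 8 was the lowest for 16 of them, or 29.1%, against 8.01% of all, and mutant 3 for 13, or 23.6%, against 20.7%. The summed level of all 56 matrix genes was 279, 327, 282 and 234 CPM in control 5 to 8 and 363, 331, 322 and 359 CPM in mutant 1 to 4. The groups overlapped in this sum, since control 6 lay above mutant 3. Without Svep1 the sums were 227 to 315 CPM in controls and 272 to 336 CPM in mutants. Removing mutant 1 and controls 5 and 6 changed the log2 fold change of Svep1 to 2.58 (edgeR adjusted p = 0.00424) and that of Col8a1 to -1.54 (0.0605). The removed libraries were those highest for Col1a1, Col1a2 and Col3a1. Only controls 7 and 8 were left, which had the lowest Svep1 levels, at 7.41 and 6.73 CPM. The larger Svep1 value is therefore no independent support for its call.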

How the data were processed

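RNA was measured in 8 libraries from 30000 sorted cells each, made with the TotalScript kit from 2 ng of RNA with 14 PCR cycles, per the labels' protocols. The authors deposited 1 table of whole-number read counts per Ensembl gene, with gene length. The submitters' processing notes name bcl2fastq 1.8.4 and mm10. The aligner, counter, annotation release and use of strand are not given in the sources used here. Library numbers 1 to 8 are those of the table's column headings.

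Counts were filtered with edgeR's filterByExpr, scaled by TMM and tested with edgeR 4.0.16's robust quasi-likelihood test (R 4.3.3) over 19494 genes, mutant against wild type (control), with Benjamini-Hochberg adjustment at 0.05. Levels are TMM-scaled CPM, and CPM per kilobase between genes. The biological coefficient of variation was 23.2%, and total counts set the precision of low genes, for counting error only. Alternatives were DESeq2 1.42.0, limma 3.58.1 (voom), other scalings and filters, and leaving out libraries. The fit was tested on simulated counts. Symbols came from a gene name table and positions from GENCODE on GRCm38, both by Ensembl ID. Tables and motif searches used Python 3.11.15.

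The members and gene lists were chosen with earlier results of these data known, and the cartilage list was added after seeing the data. All matrix genes could be named; values in every library were given for those that passed and for the 12 highest per kilobase, and for each other list the genes that passed or the 3 highest. Further genes were named after their values were seen. Of 56 matrix genes, 41 had a RefSeq promoter window. The values of 1 matrix gene are not reported here; it stays in the counts and sums over the list.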

Additional observations from a re-analysis of the deposited data

Results flagged for a closer look

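In 7 of the 110 groups of 4 libraries checked, 1 per reported matrix gene and genotype, a single library lay farther from the others than Dixon's 95% critical value of 0.829 for its gap divided by the range. Chance alone gives about 1 in 20 such groups. All 7 lay in mutant 1 or control 6. Mutant 1 was high for Col2a1, at 23.7 CPM with 9.10 in the next mutant library. It was high for Col18a1, at 27.2 CPM against 6.64. Col12a1 stood at 6.12 CPM there against 3.27, and Col16a1 at 1.47 CPM against 0.729. Control 6 was high for Lamb3, at 1.36 CPM against 0.886 in the next control, for Col6a6, at 1.32 CPM against 0.565, and for Col13a1, at 1.05 CPM against 0.283. Mutant 1 and control 6 also had the highest sums of radial glia and astrocyte markers, at 1413 and 1432 CPM, and the part of those cells in these values was not tested.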

How the results depend on the processing

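Under 17 alternatives Svep1 stayed higher and Col8a1 lower in mutants. Svep1 was 2.01 on the log2 scale without a filter on low counts and lost its call (edgeR adjusted p = 0.0758); leaving out 1 library gave 1.70 to 2.13, and the call was lost without mutant 3, mutant 4, control 5, control 7 or control 8. Col8a1 lost its call with DESeq2 size factors (-1.52), upper quartile scaling (-1.53), a minimum of 1 CPM in 4 libraries (-1.53), a non-robust fit (-1.52), limma-voom (-1.56) and with mutant 1 and controls 5 and 6 all removed (-1.54); leaving out 1 library gave -1.77 to -1.39. The count of matrix genes past the threshold, 2 in the main test, was 1 with DESeq2 size factors, upper quartile scaling, limma-voom, the CPM minimum and the non-robust fit, 4 with voom quality weights, 5 with DESeq2 and 0 to 5 with 1 library left out, the 5 without mutant 1. Over all genes the count was 70, against 214 without a filter, 489 with DESeq2, 233 with quality weights, 171 without the 3 libraries and 26 to 544 with 1 library left out. Leaving out 1 library gave -0.32 to 0.59 for Col2a1, -1.04 to 0.31 for Col18a1 and -0.49 to 0.20 for Col5a2. Values changed sign for Col2a1 without mutant 1 (-0.32), for Col18a1 without mutant 2 (0.12), mutant 3 (0.10), mutant 4 (0.07) and control 6 (0.31), and for Col5a2 without mutant 2 (0.11), mutant 3 (0.01), mutant 4 (0.20) and control 6 (0.11). Of the 371 values of the 22 other matrix genes followed, 351 kept direction and side of the threshold, 11 passed it and 9 changed sign. The cause was not tested. No paired analysis was possible because the column headings carry running numbers 1 to 8 and not the replicate numbers of the sample titles. Col13a1, with at most 27 counts in a library, was too low to be tested.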
